A study of Mus musculus with 56 samples.

Results

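The anterior hypothalamus of night-fed mice was compared between the fed active phase and the fasted rest phase. The 8 mice were all those labelled as night-restricted feeding (NRF) and sampled at ZT20 (4 mice) or ZT8 (4 mice), out of 56 mice in the series, and every gene that could be tested was compared. Zeitgeber time (ZT) is counted in hours from lights-on. All 8 were female C57BL/6J mice aged 9 weeks, with no genetic alteration, kept in 12 h of light and 12 h of dark with food in the dark phase only for 7 days. The ZT20 mice were therefore sampled in the dark with food at hand, and the ZT8 mice in the light without food. The other mice were the same regimen at 5 further time points and day-restricted feeding (DRF), with food in the light phase, at all 7 time points, 4 mice per group. Polyadenylated RNA of the dissected tissue was sequenced. Feeding state, light phase and clock time change together between these 2 groups and cannot be told apart, and in a bulk sample fewer cells of a type and less RNA per cell cannot be told apart either.

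The anterior hypothalamus holds the suprachiasmatic nucleus, which keeps the daily clock of the body, together with the preoptic, supraoptic and paraventricular nuclei, which govern body temperature, water balance, hormone release and appetite. In the molecular clock, CLOCK and BMAL1 (the product of Arntl) bind E-boxes and drive Per, Cry, Nr1d1 and Dbp, whose products then repress the activators or act on D-boxes, while REV-ERB and ROR receptors act on a shared core site in genes such as Arntl and Nfil3. In nocturnal rodents the dark phase brings waking, feeding and a higher body temperature, and heat-shock and cold-inducible transcripts are known to follow body temperature in many tissues.

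Some promoters of clock genes that changed between the time points and of heat-shock genes hold the letters of such sites, and 6 of these are shown here. Of the 16081 genes tested, 12718 had a promoter window (250 bases before to 50 after the start, from RefSeq, build GRCm38.p6). Among members of the clock lists that passed the test and held a clock motif, these are the 2 with the largest fall and the 2 with the largest rise at ZT20. Chordc1 and Hsph1, chosen after their values were seen, stand for the heat-shock genes. Capitals mark the E-box CACGTG in Ciart and Per1, the ROR core TAGGTCA in Nfil3 and Arntl (in Nfil3 as its reverse complement), and the heat-shock unit pair TTCNNGAA in Chordc1 and Hsph1. Each sequence reads 5′ to 3′ on the strand of its gene.
Ciart (chr3:95882179-95882478, minus strand): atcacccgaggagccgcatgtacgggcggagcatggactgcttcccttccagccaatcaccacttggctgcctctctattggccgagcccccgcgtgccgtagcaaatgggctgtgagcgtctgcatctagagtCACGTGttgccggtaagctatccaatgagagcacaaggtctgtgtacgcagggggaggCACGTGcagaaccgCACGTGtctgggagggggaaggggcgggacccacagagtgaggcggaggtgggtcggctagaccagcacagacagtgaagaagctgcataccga
Per1 (chr11:69098699-69098998, plus strand): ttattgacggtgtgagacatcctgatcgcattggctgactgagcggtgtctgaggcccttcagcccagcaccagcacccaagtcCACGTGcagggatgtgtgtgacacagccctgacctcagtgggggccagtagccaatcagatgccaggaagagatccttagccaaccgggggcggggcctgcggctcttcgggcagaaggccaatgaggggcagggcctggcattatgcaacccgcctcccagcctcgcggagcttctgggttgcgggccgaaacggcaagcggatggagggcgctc
Nfil3 (chr13:52980990-52981289, minus strand): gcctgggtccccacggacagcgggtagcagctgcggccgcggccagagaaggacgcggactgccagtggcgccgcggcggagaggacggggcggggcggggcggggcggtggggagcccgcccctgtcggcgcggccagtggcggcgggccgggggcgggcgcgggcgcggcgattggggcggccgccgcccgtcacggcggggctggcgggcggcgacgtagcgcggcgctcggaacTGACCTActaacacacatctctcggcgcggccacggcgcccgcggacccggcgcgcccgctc
Arntl (chr7:113207261-113207560, plus strand): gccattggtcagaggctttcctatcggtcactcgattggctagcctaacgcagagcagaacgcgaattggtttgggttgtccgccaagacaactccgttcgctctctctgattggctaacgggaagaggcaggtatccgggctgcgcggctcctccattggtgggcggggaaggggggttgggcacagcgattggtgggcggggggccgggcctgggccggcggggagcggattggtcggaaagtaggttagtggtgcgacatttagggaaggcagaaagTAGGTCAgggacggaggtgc
Chordc1 (chr9:18292017-18292316, plus strand): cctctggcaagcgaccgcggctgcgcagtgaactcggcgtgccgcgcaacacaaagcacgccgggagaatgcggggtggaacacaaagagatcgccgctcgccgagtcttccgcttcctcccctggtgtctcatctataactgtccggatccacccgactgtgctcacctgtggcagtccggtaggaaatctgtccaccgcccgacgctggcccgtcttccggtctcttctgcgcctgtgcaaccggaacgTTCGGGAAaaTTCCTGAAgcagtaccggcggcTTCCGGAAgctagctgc
Hsph1 (chr5:149636266-149636565, minus strand): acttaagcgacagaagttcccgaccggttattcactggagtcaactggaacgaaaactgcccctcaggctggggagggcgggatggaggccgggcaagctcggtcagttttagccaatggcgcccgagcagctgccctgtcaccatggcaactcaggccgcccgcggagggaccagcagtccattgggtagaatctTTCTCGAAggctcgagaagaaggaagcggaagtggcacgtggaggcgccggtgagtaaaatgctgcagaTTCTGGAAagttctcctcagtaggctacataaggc

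The Ciart window held 3 E-boxes and the Per1 window 1, the Nfil3 and Arntl windows 1 ROR core each, the Chordc1 window 3 heat-shock pairs and the Hsph1 window 2. Per1, Arntl and Hsph1 have 2 windows each in the table, and the first is shown. Over all windows the E-box was in 10.9% of genes, the D-box TTATGTAA in 0.755%, the ROR core in 2.37%, the cyclic AMP response element TGACGTCA in 3.18% and the heat-shock pair in 8.29%, searched on both strands. None of the 5 motifs contains another. The Hsph1 window also held 1 E-box, left in lower case. Genes higher at ZT20 held them in 10.7%, 0.979%, 2.22%, 3.76% and 8.09% of 1940 windows, and genes lower at ZT20 in 13.8%, 0.364%, 2.75%, 3.06% and 7.27% of 1925 windows. The heat-shock pair was in 5 of 17 windows of heat-shock genes (Chordc1, Dnajb4, Hspd1, Hspe1 and Hsph1). The E-box was in 4 of 8 windows of clock repressors (Bhlhe41, Ciart, Cry1 and Per1). Among Dbp, Tef, Hlf and Nfil3 it was in 1 of 4 windows, that of Tef and not of Dbp. It was in 0 of 6 windows of clock activators and ROR receptors. The ROR core was in 1 of those 6 (Arntl), 1 of those 4 (Nfil3) and 0 of the 8. A match describes the letters only.

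Sequencing depth was alike in the 8 mice, with normalized library sizes of 30430105 to 31606487 reads. The correlation of log2(CPM + 1) across genes between mice of a group was 0.996 to 0.998 at ZT8 and 0.995 to 0.998 at ZT20. None of 9 genes that mark neurons of the region or the anterior hypothalamus (Six6, Six3, Otp, Sim1, Nkx2-1, Nkx2-2, Oxt, Avp and Vip) was at or near 0. RNA of the region was thus present. This cannot tell how cleanly it was dissected, since no thalamus marker and no striatum and septum marker was at or near 0 either. The 9 genes summed to 649.5 to 841.6 CPM (normalized read counts scaled to a common library size) at ZT8 and 464.3 to 690.0 at ZT20. Of these, 1, Vip, passed the test described below.

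Other tissue content differed between single mice and between the groups. Markers of the thalamus, which adjoins the dissected region, summed to 248.5 to 345.5 CPM at ZT8 and 378.5 to 506.3 CPM at ZT20, against 235.4 to 621.1 CPM over the other mice of the series. Of its 5 markers, 3 did not overlap between the groups and 2 (Tcf7l2 and Ntng1) passed the test, and none was at or near 0. Over all genes tested, 16.3% were higher at ZT20 without overlap. In the test 14.9% of all genes were called higher and 14.7% lower, which applies to the marker counts that follow too. Replicate 4 of ZT20 had 323.7 CPM of meningeal fibroblast markers and the other 7 mice between 55.96 and 64.35. Replicate 2 of ZT8 had 639.4 CPM of striatum and septum markers and the others between 268.6 and 330.1. Endothelial markers summed to 207.7 to 219.0 CPM at ZT8 and 237.7 to 272.3 at ZT20, with 3 of 8 called higher (Cldn5, Flt1 and Abcb1a), and astrocyte markers to 2659 to 2832 and 2851 to 2943 CPM. Oligodendrocyte markers overlapped in sum, at 3370 to 4012 and 3283 to 3902 CPM. Microglia markers also overlapped in sum, at 231.8 to 268.8 and 223.3 to 246.1 CPM, with 4 of 8 called lower and 0 higher. Markers of the cerebral cortex summed to 15.93 to 27.53 and 24.87 to 43.55 CPM, with 2 of 5 called higher (Neurod6 and Slc17a7) and 0 lower. The part of these differences in the results was not tested except where a value with the thalamus level as a covariate, or without the 2 mice that stood apart, is given.

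**Figure D1:**
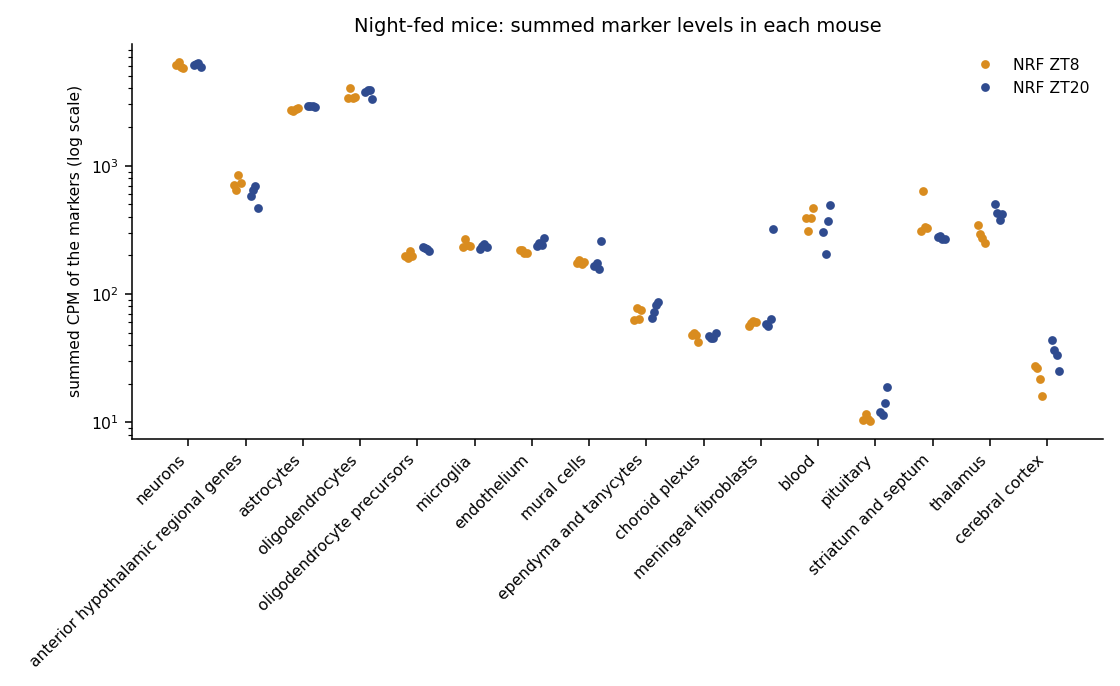
Summed level of each of 16 marker lists in each mouse (CPM, log axis), with the 4 ZT8 mice in orange and the 4 ZT20 mice in blue. The thalamus sums do not overlap (at most 345.5 CPM at ZT8 and at least 378.5 CPM at ZT20), 1 ZT20 mouse stands alone at 323.7 CPM in meningeal fibroblasts and 1 ZT8 mouse at 639.4 CPM in striatum and septum.

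A large part of the transcriptome differed between the time points, mostly by small amounts. With limma on log2(CPM + 1) over the 28 NRF mice, 4759 of 16081 genes (29.6%) passed an adjusted p under 0.05, of which 2394 (14.9%) were higher at ZT20 and 2365 (14.7%) lower. The median absolute difference of these genes was 0.24 on the log2 scale, 252 of them differed by at least 0.5 (161 higher and 91 lower), and 20 by at least 1. Of those 20, 17 were higher and 3 lower, the latter Dbp, Mt2 and Gm14296, a predicted gene whose groups overlapped and which the rule for named genes leaves out. The 4 values of each group did not overlap in 5066 genes (31.5%), 2621 higher (16.3%) and 2445 lower (15.2%). On the deposited values themselves the split was 2825 higher and 1609 lower. The median difference over all genes was 0.001.

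Direction followed base composition and length across genes. With genes cut into 4 bins of equal size by GC content, the lowest bin (median 43.08%) held 1115 higher and 148 lower genes, and the highest (median 57.49%) 165 higher and 1074 lower. In the same way the bin of the shortest transcripts (median 1702 bases) held 217 higher and 839 lower genes, and that of the longest (median 8778 bases) 1065 and 252. These trends also differ between mice of a group, and they separate the 2 groups. Across genes, the deviations of a mouse from the gene means correlated with GC content at 0.13 to 0.34 in the ZT8 mice. In the ZT20 mice r was -0.34 to -0.06. With log2 length r was -0.25 to -0.10 at ZT8 and 0.04 to 0.21 at ZT20. The part of these trends in the counts below was not tested except by removing each mouse's trends with length, GC content and level. That left 2001 higher and 2324 lower of 15805 genes. Of the 4759 calls, 3195 were also made then, and 56 had the other sign.

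**Figure D2:**
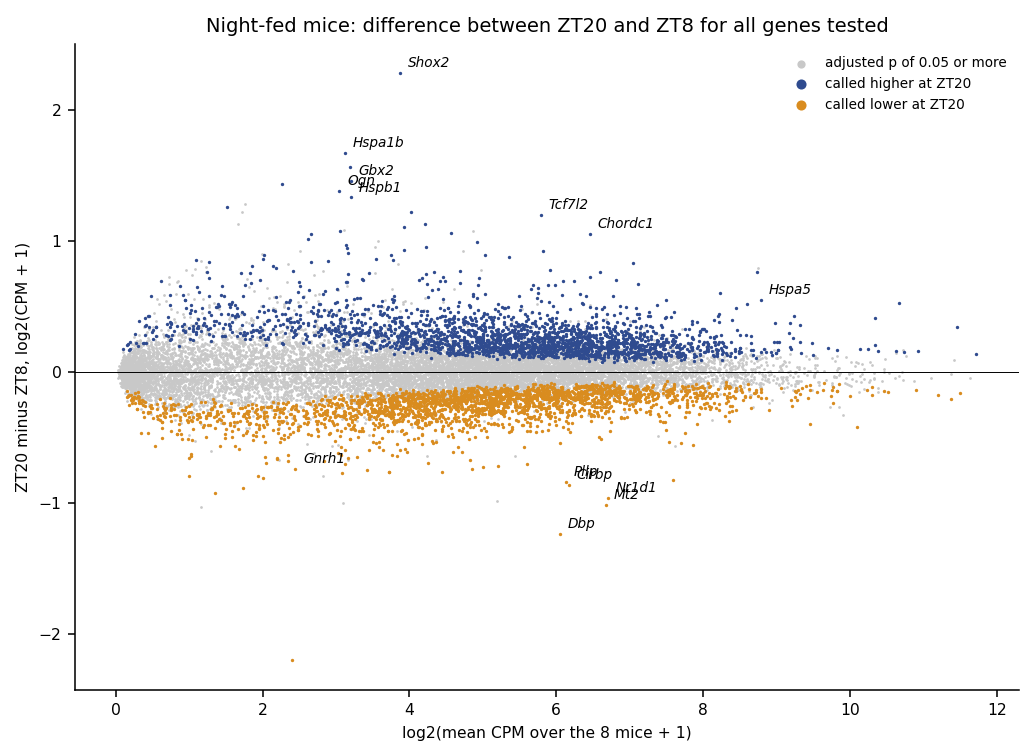
Difference between ZT20 and ZT8 for 16081 genes (log2(CPM + 1), ZT20 minus ZT8) against the mean level (log2(CPM + 1)), with genes higher in blue, lower in orange and those not past the threshold in grey. The 2394 higher and 2365 lower genes lie mostly within 0.5 of 0.

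Of 10 clock repressor genes 5 fell and 0 rose (median difference -0.13), and of 7 activators and ROR receptors 4 rose and 0 fell (median 0.32), against 14.9% of all genes that rose and 14.7% that fell. In 3 repressors and in all 7 activators and receptors the difference was above 0. For the activators and receptors 3 rose with a median of 0.17 when each mouse's trends were removed, and 3 with a median of 0.15 with the thalamus level as a covariate. Dbp, the PAR bZIP factor driven by E-boxes (chr7:45705100-45710203), was at 86.4, 96.6, 93.6 and 91.7 CPM in the ZT8 mice and at 40.9, 39.4, 39.5 and 34.5 CPM in the ZT20 mice. It fell by 1.24 ± 0.08 (SE) on the log2 scale (adjusted p = 1.54e-10), the largest fall of any named gene, and the groups lay far apart. Nr1d1, which encodes REV-ERBα (chr11:98767932-98775377), was at 129, 141, 134 and 144 CPM and then at 74.6, 66.6, 71.5 and 66.4 CPM, and fell by 0.96 ± 0.07 (adjusted p = 8.11e-10). The transcript lengths behind Dbp and Nr1d1 could not be checked against whole reads, and a wrong length would rescale their differences by a constant.

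Ciart, whose product represses CLOCK and BMAL1, had 15.4, 15.8, 16.1 and 16.2 CPM at ZT8 and 10.5, 9.3, 12.3 and 10.2 CPM at ZT20, a difference of -0.55 ± 0.08 (adjusted p = 3.09e-05). Per1 had 57.4, 60.3, 65.9 and 67.9 CPM at ZT8 and 52.7, 46.8, 53.8 and 52.3 CPM at ZT20, and fell by 0.28 ± 0.08 (adjusted p = 0.00959). In neither gene did the groups overlap. Bhlhe41 (-0.19 ± 0.05, adjusted p = 0.00551) and Cry2 (-0.16 ± 0.03, adjusted p = 0.00126) made up the 5. The remaining repressors, Per2, Per3, Cry1, Nr1d2 and Bhlhe40, differed by 0.09, -0.10, 0.12, 0.08 and -0.03 with adjusted p from 0.133 to 0.769, so no difference was resolved in them. Per3 passed the threshold without replicate 2 of ZT8 (adjusted p = 0.0408). With the thalamus level as a covariate Bhlhe41 missed it (adjusted p = 0.0539) and Bhlhe40 passed (-0.17, adjusted p = 0.0241).

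On the positive limb, Arntl was at 30.6, 27.6, 31.4 and 32.3 CPM at ZT8 and at 37.4, 38.6, 35.8 and 37.1 CPM at ZT20, and rose by 0.28 ± 0.05 (adjusted p = 0.000176). Clock rose from 82.5, 82.1, 84.6 and 77.3 CPM to 107, 104, 99.3 and 103 CPM (0.33 ± 0.06, adjusted p = 0.000387). Both genes were higher in each ZT20 mouse than in any ZT8 mouse. The receptor gene Rorb rose too (0.32 ± 0.10, adjusted p = 0.0132), though not without replicate 2 of ZT8 (adjusted p = 0.0614). Rora differed by 0.39 ± 0.25 (adjusted p = 0.241), Npas2 by 0.12 ± 0.15 (adjusted p = 0.586) and Arntl2 by 0.03 ± 0.08 (adjusted p = 0.80). Nfil3, the D-box repressor that REV-ERB and ROR receptors control, went from 8.22, 7.59, 8.89 and 8.92 CPM to 13.6, 12.5, 12.7 and 10.7 CPM and rose by 0.51 ± 0.07 (adjusted p = 2.71e-05). Its antagonists of the PAR bZIP family other than Dbp did not pass, Hlf at 0.23 ± 0.12 (adjusted p = 0.168) and Tef at 0.08 ± 0.03 (adjusted p = 0.0528), though Tef did without replicate 4 of ZT20 (adjusted p = 0.0179) or replicate 3 of ZT8 (adjusted p = 0.01).

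Cytosolic heat-shock genes rose in all but 1 of those tested. Of 21 deposited genes, 20 could be tested, 19 rose and 0 fell, against 14.9% of all genes that rose. In 19 the groups did not overlap and ZT20 was higher, as in 16.3% of all genes. Their median difference was 0.47. Hspa1b, a stress-inducible HSP70 gene (chr17:34956429-34959238), was at 3.23, 3.02, 3.64 and 2.73 CPM at ZT8 and at 14.6, 12.1, 11.4 and 10.9 CPM at ZT20, and rose by 1.67 ± 0.16 (adjusted p = 1.49e-07). The group means were 3.152 and 12.25 CPM, and every ZT20 mouse was above every ZT8 mouse. Hspa1a, its neighbouring and nearly identical copy, rose by 0.95 ± 0.13 (adjusted p = 7.38e-06), and how the reads were split between the 2 copies is uncertain. Hspb1, the small heat-shock protein HSP27 (chr5:135887919-135889563), went from 4.01, 5.21, 3.65 and 4.13 CPM to 11.7, 12.1, 10.2 and 14.9 CPM (1.33 ± 0.14, adjusted p = 2.77e-07). Chordc1, an HSP90 co-chaperone (chr9:18292267-18314000), went from 59.7, 57.6, 53.2 and 53.6 CPM to 115, 126, 119 and 109 CPM (1.05 ± 0.10, adjusted p = 1.36e-07).

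The other members covered the chaperone cycle. Hsph1, an HSP110 nucleotide exchange factor, rose by 0.76 ± 0.07 (adjusted p = 1.08e-07), the J-domain partners of HSP70 Dnajb1, Dnaja1 and Dnajb4 by 0.59, 0.48 and 0.44, the inducible HSP90 gene Hsp90aa1 by 0.53 and the HSP70-HSP90 adaptor Stip1 by 0.51. These members, and those that follow in this paragraph, were chosen to name after their values were seen. The constitutive HSP70 gene Hspa8 rose by 0.34 ± 0.05 (adjusted p = 1.05e-05), and the mitochondrial chaperonins Hspd1 and Hspe1 by 0.38 and 0.20. Hspb8 was the exception, at 20.97 CPM on average at ZT8 and 22.15 at ZT20 (0.07 ± 0.12, adjusted p = 0.702). Hsp90ab1 is in the table but could not be converted to CPM. The count stayed at 18 or 19 when any 1 of the 8 mice was left out, at 19 with the thalamus level as a covariate and with the trends removed, and at 18 without the 2 mice that stood apart.

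Chaperones of the endoplasmic reticulum (ER) rose as well. Of 19 genes 14 rose (73.7%) and 0 fell, against 14.9% and 14.7% of all genes. The median difference of the 19 was 0.37, and 14 rose whichever mouse was left out. Hspa5, the ER-resident HSP70 known as BiP (chr2:34772090-34776529), was at 366, 319, 373 and 371 CPM at ZT8 and at 534, 556, 495 and 508 CPM at ZT20, a rise of 0.55 ± 0.06 (adjusted p = 6.59e-07). Sdf2l1, a partner of BiP, went from 7.25, 7.62, 7.18 and 7.26 CPM to 14.6, 13.9, 13.8 and 14.1 CPM (0.86 ± 0.11, adjusted p = 2.55e-06). The groups were tight and apart in both. The disulfide isomerase Pdia4 rose by 0.66 ± 0.07 and the J-domain co-chaperone Dnajc3 by 0.58 ± 0.06 (adjusted p = 1.69e-07 for each). The 5 members that did not pass, named after their values were seen, were Atf4 (0.06), Ddit3 (0.01), Dnajb9 (0.04), Herpud1 (0.07) and Hyou1 (0.12). Atf4 and Ddit3 encode transcription factors of the stress response, Dnajb9 an ER J-domain protein, Herpud1 a factor in ER-associated degradation and Hyou1 a large ER chaperone.

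Several single genes fell as clearly as the chaperones rose. Cirbp, the cold-inducible RNA-binding protein (chr10:80165990-80172786), was at 92.0, 88.9, 94.9 and 92.8 CPM at ZT8 and at 48.6, 51.0, 48.4 and 53.2 CPM at ZT20, and fell by 0.86 ± 0.10 (adjusted p = 7.84e-07). Its paralog Rbm3 averaged 70.89 CPM at ZT8 and 59.66 CPM at ZT20 and did not pass (-0.25 ± 0.15, adjusted p = 0.226). In Cirbp the ZT8 mice and the ZT20 mice formed separate, narrow ranges. Of the paraspeckle proteins, Pspc1 fell by 0.35 ± 0.05 (adjusted p = 5.75e-06), Sfpq rose by 0.44 ± 0.06 (adjusted p = 5.67e-06) and Nono was at 215.2 and 212.9 CPM (adjusted p = 0.696).

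The metallothioneins, which bind zinc and copper, fell together. Mt2 (chr8:94172618-94173567) was at 129, 144, 120 and 149 CPM at ZT8 and at 65.5, 72.1, 59.8 and 68.3 CPM at ZT20 (-1.01 ± 0.10, adjusted p = 1.90e-07), and Mt1 at 226, 270, 231 and 256 CPM and then at 167, 194, 146 and 168 CPM (-0.54 ± 0.09, adjusted p = 0.000102). Among linker histones, H1f0, the replication-independent H1 of resting cells (chr15:79028212-79030504), was at 111, 116, 106 and 111 CPM and then at 78.4, 81.0, 76.3 and 78.0 CPM (-0.50 ± 0.05, adjusted p = 3.03e-07). H1f2 fell by 0.71 ± 0.10 (adjusted p = 2.40e-05) and H1f10 by 0.40 ± 0.12 (adjusted p = 0.0131), while H1f4 averaged 0.5138 and 0.5093 CPM. In each of Mt2, Mt1 and H1f0 every ZT20 mouse was below every ZT8 mouse. Txnrd3, a thioredoxin and glutathione reductase, fell from between 10.8 and 13.5 CPM to between 6.2 and 7.72 CPM (-0.75 ± 0.09, adjusted p = 2.54e-06).

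**Figure D3:**
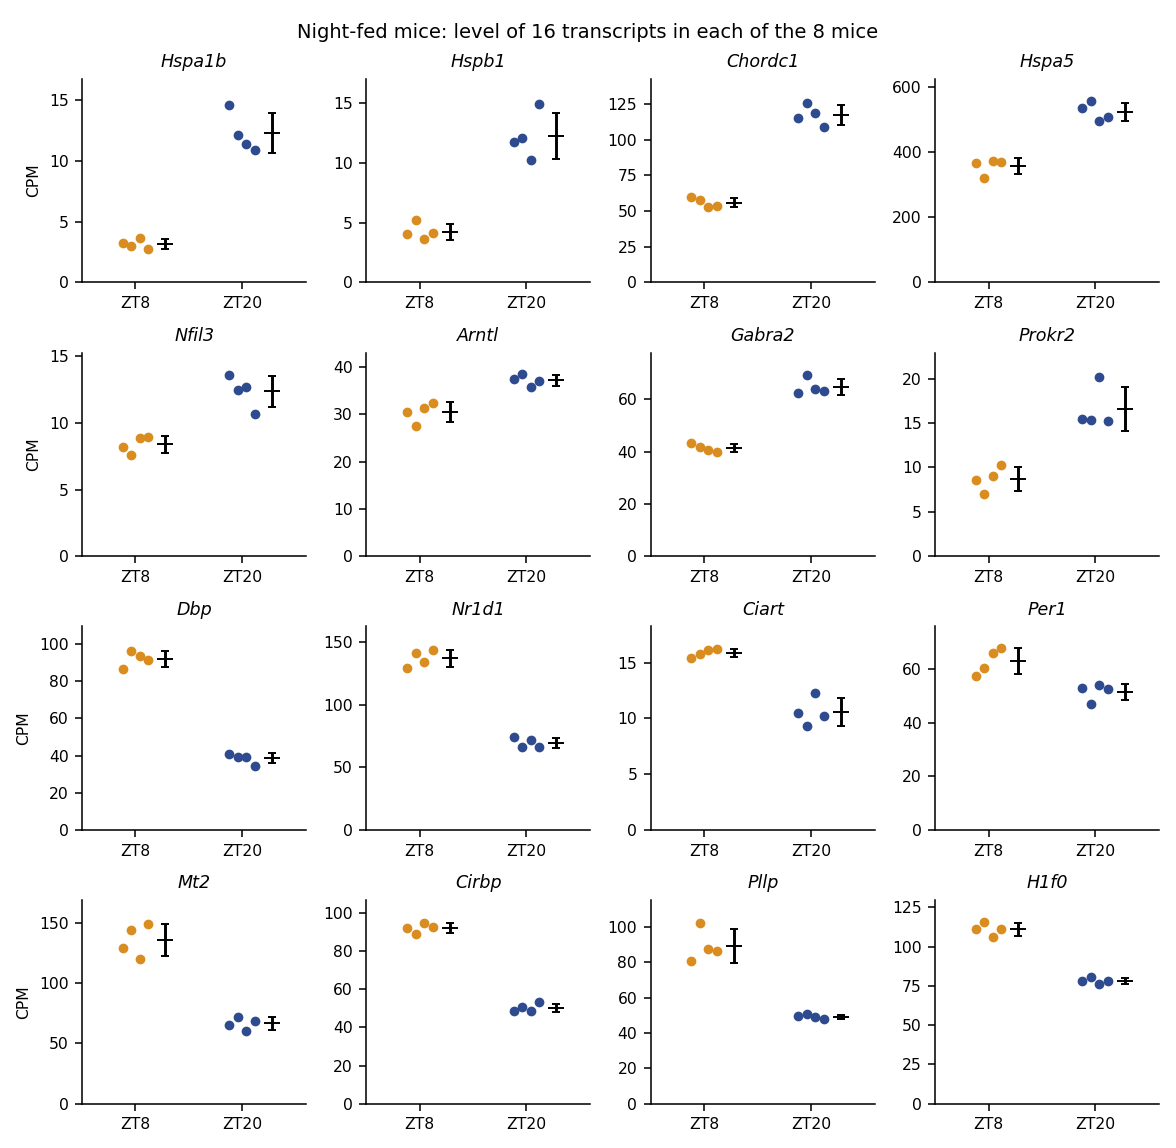
Level of 16 genes in each of the 8 mice (CPM, each axis from 0), with points for mice and a bar for the mean ± SD of the 4 mice per time point. The groups do not overlap in these genes, with Hspa1b, Hspb1, Chordc1, Hspa5, Nfil3, Arntl, Gabra2 and Prokr2 higher at ZT20 and Dbp, Nr1d1, Ciart, Per1, Mt2, Cirbp, Pllp and H1f0 lower.

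Genes that glucocorticoids induce moved both ways. Of 15 tested 7 rose (46.7%) and 2 fell (13.3%), with a median of 0.20, against 14.9% and 14.7% of all genes. The 2 that fell were the metallothioneins, which metals also induce. Plin4, a lipid droplet protein, went from 3.43, 3.32, 2.35 and 3.23 CPM to 7.84, 7.26, 9.62 and 5.49 CPM (1.05 ± 0.24, adjusted p = 0.00222), with no overlap. Sult1a1, a sulfotransferase, rose by 0.41 ± 0.14 (adjusted p = 0.0268) but not without replicate 3 or 4 of ZT20 or replicate 3 of ZT8 (adjusted p = 0.0532, 0.0788 and 0.134). The number that rose was 4 without replicate 4 of ZT20 or without replicate 3 of ZT8, and 3 without the 2 mice that stood apart. Of 20 immediate early genes, which mark recent neuronal activity, 3 rose (15%) and 1 fell, the former a share near the 14.9% of all genes that rose, and 1 rose and 0 fell without the 2 mice that stood apart. Nr4a2, an orphan nuclear receptor, rose by 0.71 ± 0.21 (adjusted p = 0.0118), though not without replicate 4 of ZT20 (0.0547), and Dusp6, a phosphatase of ERK, went from 11.7 to 13.3 CPM up to 17.1 to 18.4 CPM (0.44 ± 0.09, adjusted p = 0.000885). The calls of Npas4, an activity-dependent factor (-0.24), and Jun (0.15) each rested on single mice. Npas4 missed the threshold without replicate 1 or 4 of ZT20 or replicate 2 or 4 of ZT8 (adjusted p up to 0.147), and Jun without replicate 1, 2 or 3 of ZT20 or replicate 1 or 2 of ZT8 (adjusted p up to 0.138).

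Of 18 genes of insulin signalling and FOXO targets 6 rose (33.3%) and 2 fell (11.1%), against 14.9% and 14.7% of all genes. Angptl4, a lipoprotein lipase inhibitor that fasting induces in peripheral tissues, was at 4.27 to 5.05 CPM at ZT8 and at 5.52 to 8.13 CPM in the fed ZT20 mice (0.47 ± 0.11, adjusted p = 0.00165). Igf1r, the IGF1 receptor, rose by 0.25 ± 0.05 (adjusted p = 0.000491), and Insr, the insulin receptor, differed by -0.04 (adjusted p = 0.501). Sesn3, a regulator of mTORC1, rose by 0.38 ± 0.13 (adjusted p = 0.0318), a call lost without replicate 1 or 2 of ZT20 or replicate 2 or 4 of ZT8 (adjusted p up to 0.102). Foxo6, a forkhead factor of neurons, fell by 0.55 ± 0.19 (adjusted p = 0.0351), but not without replicate 2 or 4 of ZT20 (adjusted p = 0.0908 and 0.0782) or replicate 2 of ZT8 (adjusted p = 0.152). That last mouse had 18 CPM and the other ZT8 mice 11.1 to 11.3 CPM.

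In ketone use and fatty acid oxidation 2 of 19 genes rose (10.5%) and 6 fell (31.6%), with a median of -0.09, against 14.9% and 14.7% of all genes. The number that fell was 4 to 6 with 1 mouse left out. Bdh1, the mitochondrial enzyme that interconverts ketone bodies, fell from 48.8, 52.5, 45.2 and 51.4 CPM to 38, 37.8, 38.3 and 37.1 CPM (-0.38 ± 0.05, adjusted p = 3.04e-06), and Slc16a1, the ketone and lactate transporter MCT1, from 43.4 to 45.1 CPM down to 37.9 to 39.9 CPM (-0.21 ± 0.05, adjusted p = 0.00672). Neither overlapped. Ucp2, a mitochondrial carrier, fell by 0.35 ± 0.09 (adjusted p = 0.00423), while Acadm, a medium-chain dehydrogenase, rose by 0.17 ± 0.04 (adjusted p = 0.00602). Cholesterol and fatty acid synthesis had 2 genes higher (7.14%) and 6 lower (21.4%) of 28 (median -0.07), against the same shares of all genes. Mvd, Dhcr7, Mvk and Nsdhl, enzymes of the cholesterol pathway, were lower by 0.43, 0.38, 0.36 and 0.30. The number lower was 4 to 6 with 1 mouse left out and 4 without the 2 mice that stood apart. It was 8 with each mouse's trends removed and 8 with the thalamus level as a covariate. Of the 28 differences 24 were below 0.

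Peptide genes of the region were lower at ZT20 where they changed. Of 13 neuroendocrine peptides 6 fell (46.2%) and 0 rose (median -0.38), against 14.7% and 14.9% of all genes. The 6 were Gnrh1, Penk, Pdyn and Kiss1 and, named after their values were seen, Sst and Trh. Pdyn, the dynorphin precursor, was at 64.3, 80.5, 79.4 and 84.3 CPM at ZT8 and at 61.0, 62.2, 50.9 and 54.1 CPM at ZT20 (-0.43 ± 0.11, adjusted p = 0.0057). Gnrh1, the releasing hormone of the reproductive axis, was at 6.66, 6.61, 6.10 and 3.93 CPM and then at 2.56, 3.75, 3.45 and 2.49 CPM (-0.74 ± 0.24, adjusted p = 0.02). Its lowest ZT8 mouse lay just above its highest ZT20 mouse. Penk, the enkephalin precursor and also 1 of the striatum markers, fell by 0.54 ± 0.19 (adjusted p = 0.0395), a call lost without any 1 of the ZT20 mice (adjusted p up to 0.0816) or without replicate 2 of ZT8 (adjusted p = 0.208). Gnrh1 missed the threshold without replicate 1 (0.0535) or 4 (0.0554) of ZT20 or replicate 1 (0.053) or 2 (0.056) of ZT8, and Kiss1 without replicate 1, 2 or 4 of ZT20 or replicate 1 or 3 of ZT8 (adjusted p up to 0.15). Of the 13, only 3 were called without replicate 1 or 4 of ZT20, 4 without replicate 1 of ZT8, and 1 with the thalamus level as a covariate. Oxt and Avp, the products of the magnocellular neurons, averaged 311.6 and 191.5 CPM at ZT8 and 240.6 and 140.3 CPM at ZT20 and did not pass (adjusted p = 0.0845 and 0.119).

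Among genes of suprachiasmatic signalling, 3 of 15 rose (20%) and 4 fell (26.7%), against 14.9% and 14.7% of all genes. Prokr2, the receptor of prokineticin 2, was at 8.64, 6.97, 8.99 and 10.3 CPM at ZT8 and at 15.5, 15.3, 20.2 and 15.2 CPM at ZT20 (0.86 ± 0.16, adjusted p = 0.000294). Vip, the peptide that couples the cells of the nucleus, fell by 0.55 ± 0.12 (adjusted p = 0.00122), from 14.7 to 25.5 CPM to 10.8 to 15.8 CPM with overlap, whereas its receptor gene Vipr2 rose by 0.44 ± 0.13 (adjusted p = 0.0141). Vipr2 missed the threshold without replicate 1 of ZT20 (0.0544) or replicate 2 of ZT8 (0.0799). Nms, neuromedin S, fell from 3.08 to 4.32 CPM to 2.20 to 2.69 CPM (-0.41 ± 0.09, adjusted p = 0.00175), with no overlap. The number that fell was 2 without replicate 4 of ZT20 or replicate 3 of ZT8. Levels of these genes also depend on how much of the nucleus a dissection held, and its marker Six6 overlapped between the groups at 13.11 and 12.67 CPM on average.

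Appetite genes were mostly not resolved. Of 17 peptides and receptors of feeding 1 rose and 2 fell, shares of 5.88% and 11.8% against 14.9% and 14.7% of all genes. With the thalamus level as a covariate 4 rose and 1 fell. Npy1r, the Y1 receptor of neuropeptide Y, went from 17.8, 20.8, 21 and 20.3 CPM to 29.7, 27.6, 25.8 and 31.8 CPM (0.50 ± 0.08, adjusted p = 6.77e-05), with no overlap. Gal, galanin, fell by 0.42 ± 0.10 (adjusted p = 0.0036) and Cartpt by 0.44 ± 0.13 (adjusted p = 0.0128), the latter not without replicate 3 of ZT20 (0.0646) or replicate 4 of ZT8 (0.0701). Agrp, Npy and Pomc, the peptides of the arcuate nucleus, which lies behind the dissected region, averaged 2.746, 27.82 and 29.93 CPM at ZT8 and 4.19, 33.83 and 25.57 CPM at ZT20 with adjusted p from 0.159 to 0.873. Receptors of sleep and waking included 4 that rose and 1 that fell of 14. The orexin receptor gene Hcrtr2, the muscarinic receptor gene Chrm3 and the histamine receptor gene Hrh1 rose by 0.34, 0.33 and 0.31 (adjusted p = 0.005, 0.000173 and 0.00367). Adora1, an adenosine receptor gene with an unchecked length, rose by 0.23 ± 0.09 (adjusted p = 0.0473), a call lost without replicate 1 or 2 of ZT20 or replicate 1, 3 or 4 of ZT8 (adjusted p up to 0.149).

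Receptors and channels of neurons changed in small numbers, against 14.9% of all genes higher and 14.7% lower. Of 41 GABA and glutamate receptor genes 5 rose and 3 fell, of 91 potassium and HCN channel genes 10 and 5, and of 39 voltage-gated sodium and calcium channel genes 4 and 2. With each mouse's trends removed 4 of the receptor genes rose and 7 fell, and their median went from 0.08 to -0.001. With the thalamus level as a covariate 2 receptor genes rose and 2 fell, and 5 potassium and HCN channel genes rose and 6 fell. Gabra2, a subunit of the GABA-A receptor, was at 43.2, 41.7, 40.6 and 40 CPM at ZT8 and at 62.6, 69.4, 64.1 and 63.4 CPM at ZT20 (0.64 ± 0.09, adjusted p = 1.01e-05). All 4 ZT20 mice lay above all 4 ZT8 mice in Gabra2. Grm2, a metabotropic glutamate receptor, went from 13.1 to 16.9 CPM to 22.0 to 26.8 CPM (0.63 ± 0.18, adjusted p = 0.0082), and Grin3a, an NMDA receptor subunit, rose by 0.25 ± 0.05 (adjusted p = 0.000285). Grin1os lies antisense to Grin1, and without strand its fall (-0.38 ± 0.10) cannot be told apart from reads of its partner. Scn7a, which encodes the sodium sensor Nax, went from 13.2, 8.89, 14.6 and 15.8 CPM to 19.4, 21.8, 23.1 and 24.8 CPM (0.74 ± 0.20, adjusted p = 0.00681). The number of potassium channel genes that rose was 5 without replicate 2 of ZT8, and the number that fell was 9 without replicate 3 of ZT20. The receptor genes that rose numbered 3 without replicate 2 or 3 of ZT20 or replicate 4 of ZT8. The sodium and calcium channel genes that rose numbered 2 without replicate 2 of ZT20 or of ZT8, and those that fell numbered 0 without replicate 4 of ZT20 or replicate 3 of ZT8. The smaller calls of Kcnj6, Kcnj12, Kcnc2, Kcne1l, Scn9a and Cacna1c were each lost without at least 1 mouse. Kcnj6 was lost without replicate 2 of ZT8 (0.0503), Cacna1c without replicate 1 of ZT20 or 2 of ZT8 (0.0686 and 0.0518), Kcne1l without replicate 2 of ZT20 or 3 or 4 of ZT8 (up to 0.0989) and Scn9a, of unchecked length, without replicate 2 or 4 of ZT20 or 2 of ZT8 (up to 0.12). Kcnj12 was lost without any of 6 mice (all but replicates 2 and 4 of ZT20, up to 0.138), and Kcnc2 without any of 5 (all but replicate 4 of ZT20 and replicates 1 and 2 of ZT8, up to 0.116).

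Genes of the ribosome and of oxidative phosphorylation fell where they passed the test, by little each. Of 81 cytosolic ribosomal protein genes 40 fell and 0 rose, and of 80 genes of the respiratory chain and ATP synthase 47 fell and 0 rose, against 14.7% of all genes that fell. The medians were -0.17 for both, and 76 of 81 and 78 of 80 differences were below 0, those that did not pass included. Rps28, a small-subunit protein gene, was at 43.0, 51.7, 48.2 and 46.9 CPM and then at 34.1, 33.7, 33.0 and 37.8 CPM (-0.44 ± 0.11, adjusted p = 0.00397), and Rpl18, of the large subunit, fell by 0.33 ± 0.06 (adjusted p = 0.000292). Ndufv3, a subunit of complex I, went from 68.5, 73.4, 66.3 and 73.4 CPM to 52.7, 55.0, 50 and 58.1 CPM (-0.38 ± 0.05, adjusted p = 9.66e-06). Uqcr11, of complex III, and Atp5k, of ATP synthase, fell by 0.39 and 0.42. These lists are of short transcripts, with median lengths of 1734 and 1578 bases against 4133 over all genes. With each mouse's trends with length, GC content and level removed, 31 of 81 and 41 of 80 fell and 0 rose, and the medians were -0.10 and -0.12. The ribosomal count was 26 without replicate 3 of ZT20 and 19 with the thalamus level as a covariate. The respiratory count was 25 without replicate 2 of ZT8, and 23 without the 2 mice that stood apart.

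Mitochondrial ribosomal protein genes fell in 26 (33.8%) and rose in 3 (3.9%) of 77 (median -0.09), against 14.7% and 14.9% of all genes. The largest fall was that of Mrpl54, from 18.5, 19.8, 18.7 and 20.4 CPM to 13, 12.9, 12.8 and 14.4 CPM (-0.51 ± 0.07, adjusted p = 9.16e-06). Proteasome subunit genes fell in 12 (32.4%) and rose in 1 (2.7%) of 37, with the core subunits Psmb10, Psmb3, Psmb6 and Psmb2 lower by 0.33, 0.33, 0.30 and 0.24. The 12 became 7 without replicate 1 of ZT8 and 8 without replicate 2 or 4 of ZT8, and with each mouse's trends removed 5 rose and 11 fell. Of 40 splicing factor genes 16 rose (40%) and 5 fell (12.5%), with a median of 0.08. Hnrnpm, which binds pre-mRNA, was at 78.2, 81.3, 84.0 and 82.8 CPM at ZT8 and at 114, 116, 111 and 115 CPM at ZT20 (0.48 ± 0.06, adjusted p = 1.23e-06), and Srsf10 rose by 0.38 while Hnrnpdl and Sf3b5 fell by 0.34 each. These transcripts have a median GC content of 45.59% against 50.41% over all genes, and with the trends removed 14 rose and 8 fell and the median turned to -0.0084. The 5 that fell were 3 without replicate 1 of ZT8. The list of translation initiation factors was split evenly, with 11 of 53 higher (20.8%) and 12 lower (22.6%). It was drawn by gene symbol and also holds genes such as Eif2ak3, which encodes a kinase rather than an initiation factor. Eif3j1, Eif5b and Eif3a rose by 0.34, 0.28 and 0.27, and Eif2b3, a subunit of the exchange factor of eIF2, fell by 0.30 (the length behind Eif5b was unchecked).

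**Figure D4:**
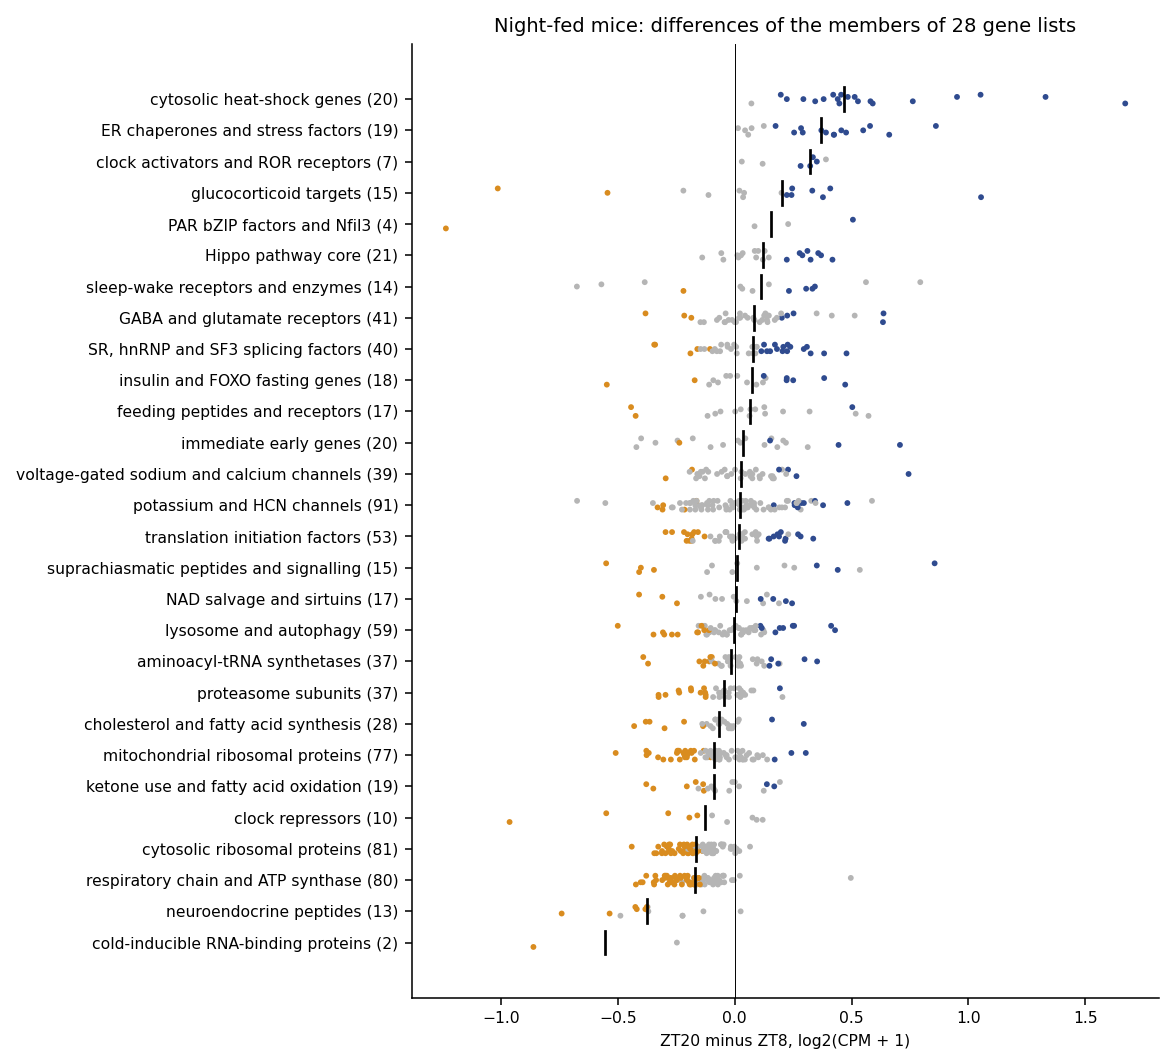
Difference between ZT20 and ZT8 (log2(CPM + 1), ZT20 minus ZT8) for the members of 28 gene lists, each point a gene and each black line the list's median, sorted by median. Cytosolic heat-shock genes (median 0.47) and ER chaperones (0.37) lie highest, and ribosomal proteins (-0.17), respiratory chain genes (-0.17) and neuroendocrine peptides (-0.38) are among the lowest.

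Of 21 genes of the Hippo pathway, which restrains the co-activators YAP and TAZ, 8 rose (38.1%) and 0 fell (median 0.12). Of all genes 14.9% rose and 14.7% fell. In the pathway 8 rose whichever mouse was left out, with 1 lower without replicate 1 of ZT20. With each mouse's trends removed 9 rose and 2 fell, and the median was 0.06. Amot, an angiomotin that binds YAP, was at 34.3, 29.1, 32.8 and 33.2 CPM at ZT8 and at 42.5, 43.6, 45.4 and 42.4 CPM at ZT20 (0.42 ± 0.07, adjusted p = 5.32e-05). Yap1 itself rose by 0.32 ± 0.07 (adjusted p = 0.000767), Wwtr1, which encodes TAZ, by 0.36 ± 0.07 (adjusted p = 0.00085) and Amotl1 by 0.37 ± 0.09 (adjusted p = 0.00378). All 4 did not overlap between the groups. These genes are also used by endothelial cells and astrocytes, whose marker sums did not overlap either, and the part of those cells was not tested.

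In 3 further lists some genes rose and others fell, in shares to be read against 14.9% and 14.7% of all genes. NAD salvage and sirtuin genes had 4 higher (23.5%) and 3 lower (17.6%) of 17, with Nmnat3, an NAD synthase, lower by 0.41, the deacylase genes Sirt5 and Sirt6 by 0.31 and 0.25, and Sirt1, a deacetylase of clock proteins, higher by 0.25 (adjusted p = 0.0145, and 0.067 without replicate 2 of ZT8, without which 2 rather than 4 rose). Aminoacyl-tRNA synthetase genes had 5 higher (13.5%) and 9 lower (24.3%) of 37. Lars, for leucine in the cytosol, went from 37.4, 38.1, 36.5 and 37.1 CPM to 28.7, 27.2, 27.6 and 29.4 CPM (-0.39 ± 0.06, adjusted p = 1.70e-05), Sars2 fell by 0.37, and Ears2 and Wars2, like Sars2 for mitochondria, rose by 0.35 and 0.30. The counts there were 5 lower without replicate 4 of ZT20, 6 lower without replicate 1 of ZT20 or 3 or 4 of ZT8, and 3 higher without replicate 4 of ZT8. Lysosome and autophagy genes had 9 higher (15.3%) and 11 lower (18.6%) of 59, among them Ctsc, a lysosomal protease, at 0.41 ± 0.10 (adjusted p = 0.00289) and Atg10, of autophagosome formation, at -0.35 ± 0.06 (adjusted p = 0.000306).

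Several of the largest rises beside those of the heat-shock genes lost their call with the thalamus level as a covariate. Shox2, a homeobox gene of the thalamus and other regions (chr3:66971723-66981771), was at 8.83, 4.69, 3.62 and 1.09 CPM at ZT8 and at 30.1, 19.9, 20.2 and 20.7 CPM at ZT20 (2.28 ± 0.66, adjusted p = 0.0117). The homeobox gene Gbx2 (1.46 ± 0.44), the troponin gene Tnnt1 (1.43 ± 0.54), Slitrk6 (1.22 ± 0.33), the thalamus marker Tcf7l2 (1.19 ± 0.36), Synpo2 (1.12 ± 0.36) and the exchange factor Vav3 (1.10 ± 0.30) followed. With the thalamus level as a covariate Shox2 was at 0.64 (adjusted p = 0.0598), Gbx2 at 0.56 (0.219), Tnnt1 at 0.06 (0.78), Slitrk6 at 0.49 (0.0712), Tcf7l2 at 0.30 (0.081) and Synpo2 at 0.23 (0.165), none past the threshold. Tcf7l2 is itself 1 of the 5 markers averaged for that covariate, so a smaller difference of Tcf7l2 there was built in. Vav3, Hspa1b and Hspb1 kept the call in that fit. Calls were lost without replicate 4 of ZT8 for Shox2 (0.053), Gbx2 (0.0859), Tcf7l2 (0.0542) and Synpo2 (0.0683), without replicate 1 of ZT20 for Synpo2 (0.056) and without any but replicate 1 of ZT8 for Tnnt1 (0.0502 to 0.144). Ogn, an extracellular matrix proteoglycan, was at 1.44 to 1.99 CPM at ZT8 and at 2.20, 2.99, 3.39 and 42.6 CPM at ZT20, the last in the mouse with the meningeal fibroblast markers, and without the 2 mice that stood apart its difference was 0.55 (adjusted p = 0.0525) in place of 1.38. Without replicate 4 of ZT8 its adjusted p was 0.0545.

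Falls among genes of glia were not shared by the whole cell type. Pllp, a proteolipid of myelin, was at 80.4, 102, 87.5 and 86.2 CPM at ZT8 and at 49.3, 50.4, 48.8 and 47.7 CPM at ZT20 (-0.84 ± 0.07, adjusted p = 1.17e-08), and Opalin, an oligodendrocyte membrane protein, at 23.7, 32.8, 24.8 and 24.7 CPM and then at 14.1, 14.9, 15.8 and 15.2 CPM (-0.77 ± 0.11, adjusted p = 1.84e-05). Of the oligodendrocyte markers Mag, Mog and Cnp fell by 0.45, 0.31 and 0.30, while Mobp, Mal and Cldn11 differed by 0.12, 0.07 and 0.05 and did not pass. Fabp7, a fatty acid-binding protein and an astrocyte marker here, fell from 36.9, 35.1, 27.4 and 41.9 CPM to 19.2, 22.0, 18.8 and 22.0 CPM (-0.75 ± 0.13, adjusted p = 0.000124), whereas the astrocyte markers Gja1, Fgfr3 and Slc1a2 rose by 0.25, 0.20 and 0.17. Aldh1l1, another astrocyte marker, fell by 0.19 (adjusted p = 0.00885). Of the 9 astrocyte markers 3 were called higher and 2 lower, against 14.9% and 14.7% of all genes. Markers of glia were named after their values were seen. Pla2g4e, a phospholipase, fell by 0.77 ± 0.13 (adjusted p = 0.000159).

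The same time points in day-fed mice showed far fewer calls, which by itself is no test of a difference. In a fit over all 56 mice, ZT20 and ZT8 differed in 93 genes of DRF mice (0.578%), 69 higher and 24 lower, with 1431 at an unadjusted p under 0.05, and in 3195 genes of NRF mice, of which 55 were among the 93. The difference between regimens itself passed the threshold in 197 genes (1.23%), 98 above 0 and 99 below, and 189 of them were among the 4759. It was 392 without replicate 2 of DRF ZT20 and 126 to 130 without replicate 3 of DRF ZT20, replicate 3 of DRF ZT8, replicate 1 or 2 of NRF ZT20 or replicate 4 of NRF ZT8. Mt2 led, since it fell by 1.01 in NRF and was 1.02 higher at ZT20 in DRF (difference of differences -2.03 ± 0.17, adjusted p = 2.96e-11). Mt1 was at -0.54 and 0.42 (-0.97 ± 0.16, adjusted p = 0.00042). H1f0 was at -0.50 in NRF and 0.14 in DRF (-0.64 ± 0.08, adjusted p = 7.58e-06), H1f2 at -0.71 and 0.40 (-1.11 ± 0.18, adjusted p = 0.00042), Pspc1 at -0.35 and 0.10 (-0.45 ± 0.07, adjusted p = 0.00042) and Cirbp at -0.86 and -0.30 (-0.56 ± 0.15, adjusted p = 0.0374).

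Where the regimens differed in a chaperone gene of these lists, its rise was larger in night-fed mice. Hsph1 rose by 0.76 in NRF and was at 0.29 in DRF (0.47 ± 0.10, adjusted p = 0.00877), Pdia4 at 0.66 and 0.10 (0.56 ± 0.10, adjusted p = 0.00302) and Hspa5 at 0.55 and 0.13 (0.42 ± 0.11, adjusted p = 0.0434). For Hspa1b (1.67 and 0.57) and Chordc1 (1.05 and 0.27) the test missed the threshold (adjusted p = 0.0797 and 0.0539). Of the 20 heat-shock genes 4 differed between regimens (Fkbp4, Hspa1a, Hspb1 and Hsph1), and of the 19 ER genes 5 (Dnajc3, Hspa5, Pdia4, Pdia6 and Sdf2l1). In the clock lists Dbp was at -1.24 and -0.79 in NRF and DRF (adjusted p of the difference 0.0657), Ciart at -0.55 and -0.28 (adjusted p = 0.373) and Arntl at 0.28 and 0.20 (adjusted p = 0.678), and only Nr1d1 of the clock lists passed (-0.96 and -0.55, adjusted p = 0.0409). Npy1r was at 0.50 in NRF and -0.16 in DRF (0.66 ± 0.14, adjusted p = 0.00963).

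Across the 7 time points, ZT8 and ZT20 were not always the extremes of the night-fed day. Mean levels of Nr1d1, Cirbp and H1f0 were highest at ZT8 and lowest at ZT20, whereas Dbp was highest at ZT12 (97.0 ± 9.6 CPM, SD, n = 4) and lowest at ZT24 (35.8 ± 2.5 CPM). Hspa1b was lowest at ZT8 and highest at ZT16 (17.8 ± 4.8 CPM), and Chordc1 lowest at ZT8 and highest at ZT20. Relative to ZT8, the median of the heat-shock list in NRF was 0.30 at ZT0, 0.13 at ZT4, 0.05 at ZT12, 0.36 at ZT16, 0.47 at ZT20 and 0.31 at ZT24. The list was nearest its ZT8 level at ZT12, and further above it at ZT0, ZT4, ZT16, ZT20 and ZT24. Ribosomal protein and respiratory chain medians were within 0.07 of ZT8 from ZT0 to ZT16. They were at -0.17 and -0.17 at ZT20, and -0.18 and -0.16 at ZT24. ZT0 and ZT24 are the same hour of the day in separate mice, yet the ZT0 medians were 0.01 and -0.01. The correlation of a mouse's deviations with log2 length also differed, at -0.22 to -0.002 at ZT0 and 0.27 to 0.35 at ZT24. Its part in these medians was not tested. Glucocorticoid targets were highest at ZT12 and ZT16 (medians 0.43 and 0.45), with Plin4 at 18.1 ± 3.5 CPM at ZT16 against 7.55 ± 1.7 CPM at ZT20. Mt2 was highest at ZT8 and ZT12 in NRF and at ZT20 in DRF (160.6 ± 34 CPM). Comparisons along the day share the ZT8 mice and were not tested.

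**Figure D5:**
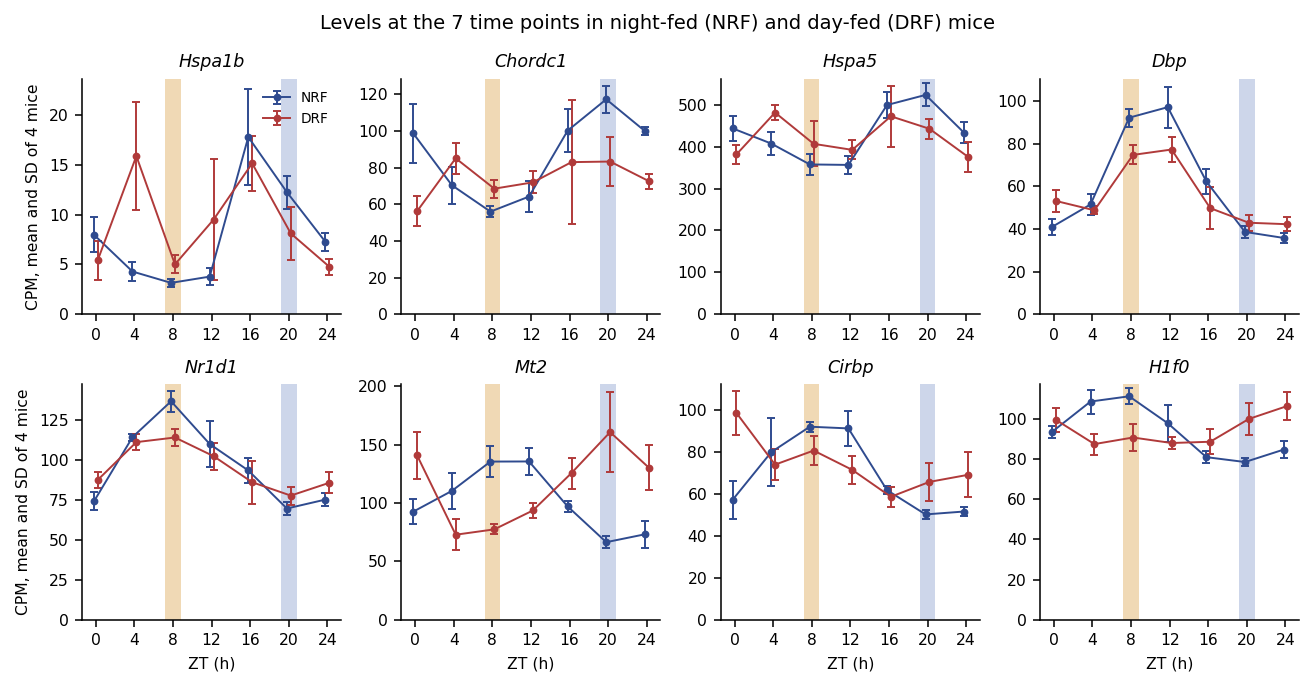
Mean and SD of 4 mice (CPM) at each of 7 time points for Hspa1b, Chordc1, Hspa5, Dbp, Nr1d1, Mt2, Cirbp and H1f0, in NRF (blue) and DRF (red), with ZT8 and ZT20 shaded. In NRF Nr1d1 falls from 137 CPM at ZT8 to 69.78 CPM at ZT20 and Mt2 from 135.4 to 66.4 CPM, while Mt2 in DRF is at 77.4 and 160.6 CPM.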

How the data were processed

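Anterior hypothalamus RNA of 56 mice was sequenced on a BGISEQ-500. The authors cleaned reads, aligned them to GRCm38.p6 (mm10) with HISAT2 and Bowtie2, quantified them with RSEM and applied TMM scaling before converting to values they named TPM. The deposited values act as a score rather than TPM, since their steps are those of log2(CPM + 1) of normalized reads divided by a gene length and rescaled per mouse. They were converted back to log2(CPM + 1) for 17284 of 17564 genes. Of these, 14918 resolved into whole reads (99.83% of values within 0.1 of a whole read), 1682 into reads with 2 decimals, as RSEM gives them, and 684 could not be checked. A further 280 had no usable length. The planned test was on the recovered log2(CPM + 1). Counting is not stated to use strand. Tools were Python 3.11.15, numpy 2.4.6, pandas 2.3.3, scipy 1.17.1, matplotlib 3.10.9, R 4.3.3 and limma 3.58.1.

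A gene was tested when 80% or more of the 56 mice had a deposited value of 1 or more (16081 genes). limma was fitted with a mean-variance trend to 28 NRF mice with 1 mean per time point, and the difference between regimens to 56 mice, two-sided, with Benjamini-Hochberg adjustment and a threshold of 0.05. Every adjusted p is from limma, and ± is the SE unless stated. The mice are separate animals. Gene lists are described by counts and medians with no test of their own. The genes named are the 10 largest differences in each direction among called genes with non-overlapping groups and a mean log2(CPM + 1) of at least 2, all clock list members, up to 4 called members per other list and the 3 genes with the smallest p for the difference between regimens. A few genes that the rule names are not reported here. Others were chosen after their values were seen. The part of the series, the rule and the 28 gene and 16 marker lists were chosen with earlier results of these data known. Steps were tested on simulated data. Alternatives were 22 other settings for NRF and 23 for the regimens, and no replicate block was used in the reported fit.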

Additional observations from a re-analysis of the deposited data

Results flagged for a closer look

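Single mice far from the other 3 of their group were found in 17 of 258 groups of 4 values by Dixon's test at the 95% level, and chance alone flags about 1 in 20 groups. Replicate 2 of ZT8 accounted for 8 of them. It was lower than its group in Rorb (34.6 CPM), Dnajc3 (62 CPM), Hspa5 (319 CPM) and Cacna1c (79 CPM), and higher in Opalin (32.8 CPM), Npas4 (19.2 CPM), Foxo6 (18 CPM) and Penk (337 CPM), and it is the mouse with 639.4 CPM of striatum and septum markers, of which Penk is 1. Replicate 4 of ZT20, with 323.7 CPM of meningeal fibroblast markers, was higher than its group in Ogn (42.6 CPM), Slc16a1 (39.9 CPM), Dnajc3 (105 CPM) and Mrpl54 (14.4 CPM). Replicate 1 of ZT20, with the highest thalamus sum of the 8 mice, was higher in Shox2 (30.1 CPM) and Tcf7l2 (94.9 CPM) and lower in Atp5k (12.7 CPM). Prokr2 was higher in replicate 3 of ZT20 (20.2 CPM) and Sirt5 lower in replicate 1 of ZT8 (10.5 CPM).

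The difference between ZT20 and ZT8 differed between night-fed and day-fed mice in 197 of 16081 genes (limma interaction over 56 mice). Among the named genes it was lower in NRF for Mt2 (-2.03), Mt1 (-0.97), H1f0 (-0.64), Txnrd3 (-0.61), Cirbp (-0.56), Nr1d1 (-0.41), Ndufv3 (-0.41), Mvk (-0.37), Lars (-0.36) and Sirt5 (-0.35) on the log2 scale. It was higher in NRF for the chaperone genes Hspb1 (1.08), Hspa1a (0.79), Sdf2l1 (0.6), Pdia4 (0.56), Dnajc3 (0.49) and Hspa5 (0.42), for the receptor genes Npy1r (0.66) and Grin3a (0.31) and for Hnrnpm (0.33). Of the 197 genes 189 were also called between ZT20 and ZT8 in NRF. The regimens differ in when food was given and in what the mice had gone through over 7 days, which cannot be told apart here.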

How the results depend on the processing

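Of 129 named genes tested 119 were called, 91 of them whichever of the 8 mice was left out, and none of the 119 changed sign under any alternative run. The count of 4759 genes was 3756 to 4318 with 1 mouse left out, with 1899 to 2215 higher and 1844 to 2103 lower. Over all 56 mice it was 3195, with 1499 higher, and without replicate 2 of ZT8 and replicate 4 of ZT20 it was 3238, with 1554 lower. With the thalamus level as a covariate it was 3304, on the deposited values 4434 (2825 higher and 1609 lower), with voom 4126 of 13866 genes and without a filter 4700 of 17284. The thalamus covariate and the omission of both mice together were chosen after seeing the data. The cause of these shifts was not tested.

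The 197 genes that differed between regimens became 497 with the trends of each mouse removed, and 486 with the replicate block added, and ranged from 126 to 392 with 1 mouse left out. Among the named genes, signs of the difference between ZT20 and ZT8 turned only in those that did not pass. Bhlhe40 turned on the deposited values (0.0032). Nr1d2 (-0.0088) and Arntl2 (-0.0279) turned with the trends removed, with or without the block. Arntl2 also turned without replicate 4 of ZT20 (-0.0047), replicate 2 of ZT8 (-0.0318) or both (-0.0669). Its range was -0.0318 to 0.0628 with 1 mouse left out. Npas2 (-0.069), Rora (-0.22) and Hlf (-0.0711) turned with the thalamus covariate. Over all 4759 calls, 56 had the other sign with the trends removed.

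Mice with the same replicate number share only a number. Their deviations from the group means correlated at -0.069 to 0.11 across genes, against -0.086 to 0.10 for other numbers, and 3 of 8 samples correlated best with their own number. With the replicate number as a block, 5053 genes were called (2556 higher and 2497 lower), 4695 of them among the 4759, and no named call was lost.

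Counts of 1 to 3 members of a list often changed by 1 with a single mouse left out. Counting error limits precision most in genes near or below 1 CPM.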
